A study of Mus musculus with 6 samples.

Results

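The ADAM and ADAMTS metalloproteases were followed in the mouse lung 14 days after bleomycin, a DNA-damaging drug whose delivery into the airways is widely used as a model of lung fibrosis. Members were all genes whose symbol on the array starts with Adam, which takes in the ADAM proteases, the ADAMTS proteases, the ADAMTS-like proteins and Adamdec1. They came to 35 of the 12393 genes that the arrays measured with a single symbol, read through 48 probe sets, and 24 further genes with such a symbol in the RefSeq table were not analysed here. A probe set is a group of short array probes for 1 transcript, and each gene was read through its probe set with the highest mean over all arrays.

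RNA from whole homogenised lung was read on Affymetrix MOE430A arrays, 1 per mouse. The 3 bleomycin mice (D, E and F) received 1 mg/kg of the drug in 50 µl of saline, and the 3 saline mice (A, B and C) received saline alone. All 6 were killed at day 14, and all are labelled wild-type male C57BL/6J mice of 8 to 10 weeks, with no transgene or deletion. The design text gives the oropharyngeal route and the sample labels the intratracheal one, so the route is not settled.

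ADAM proteins carry a disintegrin and a metalloprotease domain. Most of the catalytic ones sit in the cell membrane and release the outer parts of other membrane proteins, among them tumour necrosis factor, ligands of the epidermal growth factor receptor, Notch and cadherins. ADAMTS proteases are secreted, carry thrombospondin repeats, and cut proteoglycans, procollagens and other matrix proteins. ADAMTS-like proteins lack the protease domain and bind the matrix, while many ADAM genes of the mouse are known from sperm and the epididymis.

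The promoters of Adam17, Adam8 and Adam10 are shown because these were the members with a probe set that passed the test between bleomycin and saline lungs. Each sequence runs from 250 bases before to 50 bases after the gene's start and is from RefSeq on GRCm38.p6, whose promoter table held 15 of the 35 members. Capitals mark the GC box (GGGCGG) and the CCAAT box on either strand.

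Adam17, chr12:21373583-21373882, minus strand: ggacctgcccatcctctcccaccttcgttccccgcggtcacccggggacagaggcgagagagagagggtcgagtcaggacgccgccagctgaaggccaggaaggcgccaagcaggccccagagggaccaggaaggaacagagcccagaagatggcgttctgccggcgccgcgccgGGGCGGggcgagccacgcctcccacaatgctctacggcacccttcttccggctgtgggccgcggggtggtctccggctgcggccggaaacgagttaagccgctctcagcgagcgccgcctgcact

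Adam8, chr7:139992513-139992812, minus strand: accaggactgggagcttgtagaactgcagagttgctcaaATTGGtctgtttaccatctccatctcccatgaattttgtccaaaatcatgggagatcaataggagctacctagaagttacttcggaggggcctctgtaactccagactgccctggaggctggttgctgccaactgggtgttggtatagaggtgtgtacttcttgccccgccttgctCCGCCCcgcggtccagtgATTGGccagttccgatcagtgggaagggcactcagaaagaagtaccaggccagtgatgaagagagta

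Adam10, chr9:70678732-70679031, plus strand: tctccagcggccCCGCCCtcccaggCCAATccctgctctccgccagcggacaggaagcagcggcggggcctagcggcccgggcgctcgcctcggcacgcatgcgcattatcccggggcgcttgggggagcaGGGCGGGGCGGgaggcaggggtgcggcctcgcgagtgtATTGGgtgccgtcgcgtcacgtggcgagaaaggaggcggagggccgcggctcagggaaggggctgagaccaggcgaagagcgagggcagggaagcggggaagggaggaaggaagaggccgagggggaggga

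The Adam17 stretch held 1 GC box, which begins 75 bases upstream of the start, and no CCAAT box. Adam8 held 1 GC box beginning 35 bases upstream and 2 CCAAT boxes, both on the reverse strand. Adam10 held 3 GC boxes, of which 2 overlap each other, 2 CCAAT boxes and 1 E box (CACGTG). A GC box was present in 35.7% of the 32851 promoters of the table, a CCAAT box in 37.4% and an E box in 7.15%. The TATA box (TATAAA), found in 13.6% of all promoters, and the AP-1 site (TGANTCA, either strand), found in 7.81%, matched in none of the 3 stretches. G and C made up 70% of the Adam17 stretch, 52.3% of that of Adam8 and 73.3% of that of Adam10, beside a median of 52.7% over all promoters. These matches describe letters in these windows and were not tested against the expression values.

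Values are log2 expression values on the authors' normalised scale, so that a difference of 1 unit is a doubling. Saline B read Xist, the RNA that coats an inactive X chromosome, at 11.40, beside 7.23 to 7.88 on the other arrays, and the Y-linked Eif2s3y stood at 4.05, beside 7.23 to 8.02, so that both go against its label of male. Bleomycin D stood apart on the first principal component, at 44.3 beside 12.9 and 19.8 for the other bleomycin arrays, and the saline arrays lay between -28.6 and -21.4. Array medians lay between 7.37 and 7.41. The number of arrays, 3 in each group, limits the precision of every value below.

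Adam8 and Adam17 were higher in bleomycin lungs, and no member was called lower. Adam8, a membrane protease known from leukocytes, was 1.81-fold higher, and Adam17, the protease that releases tumour necrosis factor from the cell surface, was 1.73-fold higher. The 2 called members are 5.71% of the 35, and over all genes 3.70% were called higher, 1.90% lower and 5.60% in either direction (adjusted p under 0.05 in limma). Read against that background, the family as a whole had about the share of calls that the array had. The median difference over the 35 members was -0.06 log2 units, beside -0.04 over all genes. An unadjusted p under 0.05 was found for 7 members (20%), beside 22.7% of all genes. The bleomycin and saline arrays did not overlap for 7 members (20%), 6 of them higher and 1 lower in bleomycin lungs, beside 27.9% of all genes, 13.3% wholly above and 14.6% wholly below.

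**Figure D1:**
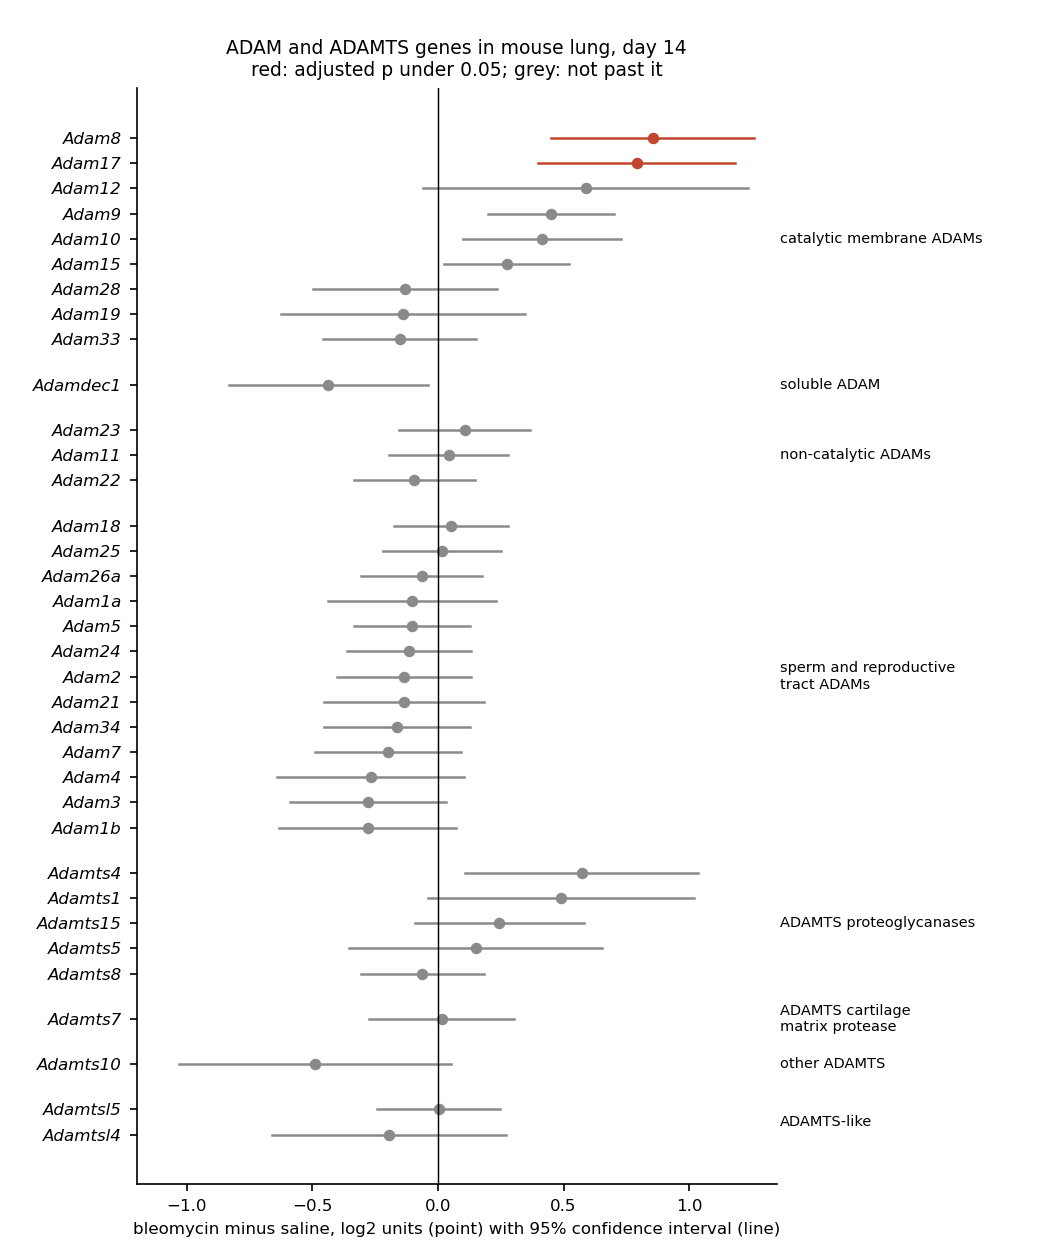
Each point is the difference between bleomycin and saline lungs for 1 gene in log2 units, with its 95% confidence interval as a line (3 arrays per group), grouped by what the proteins are known for. Adam8 at 0.85 and Adam17 at 0.79 are the 2 points in red, and the sperm and reproductive tract genes all lie between -0.28 and 0.05.

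The catalytic membrane ADAMs held both calls. Of their 9 members, 6 had positive differences (Adam8, Adam17, Adam12, Adam9, Adam10 and Adam15) and 3 had negative ones (Adam19, Adam28 and Adam33), with a median of 0.41. In those 6 genes every bleomycin array lay above every saline array. The 2 calls are 22.2% of the 9, beside 3.70% of all genes called higher. Of the 9, 1 lay below the median of all probe sets by mean signal. With the dimmer probe sets, up to the median, left out, 5.81% of genes were called higher. The 6 genes with groups apart are 66.7%, beside 13.3% of all genes wholly above. Positive differences were found in 5333 of all 12393 genes. The median of the 9 was 0.26 without bleomycin D and between 0.33 and 0.48 when another array was left out. Since the RNA is from whole lung, more cells of a type and more RNA per cell cannot be told apart.

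Adam8 stood at 9.41, 8.93 and 8.96 in bleomycin lungs D, E and F, against 8.08, 8.10 and 8.55 in saline lungs A, B and C. The lowest bleomycin value lay above the highest saline value, and D was the highest of its group. The difference was 0.85 ± 0.18 log2 units (SE, n = 3 each, adjusted p = 0.0341), with a 95% interval of 1.37-fold to 2.39-fold. Adam8 has a single probe set, so no second reading was to be had. Of 7 macrophage markers measured, 6 rose, while Marco differed by 0.46 without passing. Their mean was 10.25 to 10.59 in bleomycin lungs, against 8.29 to 8.66 in saline lungs, and the part of macrophages in the Adam8 and Adam17 differences was not tested. None of 5 neutrophil markers passed, and their mean was 8.19 to 9.10 in bleomycin lungs, against 8.26 to 8.83 in saline lungs. Without saline B the adjusted p of Adam8 was 0.0877, and it was 0.107 without saline A, 0.0741 without bleomycin D and 0.0751 without bleomycin F, with differences of 0.70 to 1.01 over the fits that left out 1 array.

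Adam17 stood at 10.17, 9.89 and 9.93 in bleomycin lungs D, E and F, against 9.32, 8.84 and 9.47 in saline lungs A, B and C. Saline B was the lowest of all 6, and the groups did not overlap. The difference was 0.79 ± 0.17 log2 units (SE, n = 3 each, adjusted p = 0.0393), with a 95% interval of 1.32-fold to 2.27-fold. Its 3 probe sets gave like differences, 0.79, 0.65 and 0.71, of which the first and the last passed (adjusted p = 0.0659 for the other). Of all probe sets 3.29% were called higher and 4.74% in either direction. In the dimmest of them the values were 7.18, 6.93 and 7.29 in bleomycin lungs, against 6.17, 6.51 and 6.58 in saline lungs. Left-out arrays ended the call in 5 fits: the adjusted p was 0.0658 without saline B, 0.0949 without saline A, 0.105 without bleomycin D, 0.0634 without bleomycin E and 0.101 without bleomycin F. The difference itself stayed between 0.61 and 0.92, the lowest without saline B.

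**Figure D2:**
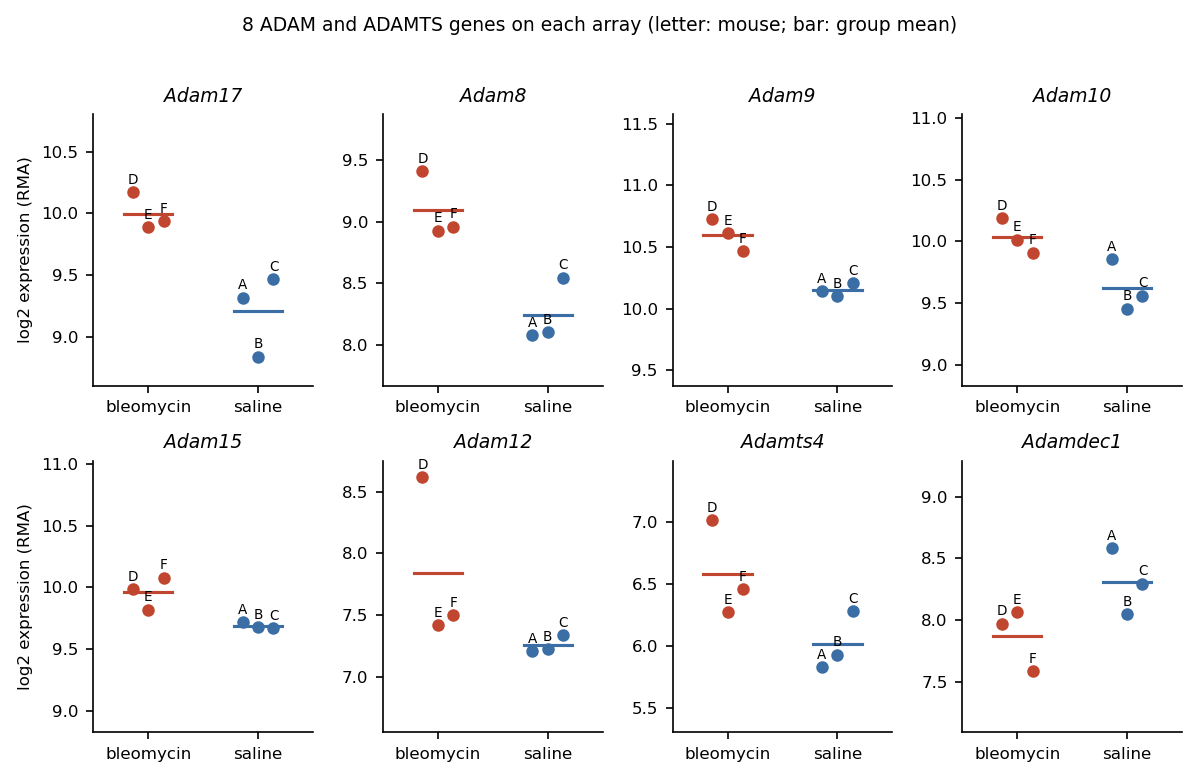
Log2 expression of 8 members on each array, with bleomycin mice on the left, saline mice on the right, and a bar at the group mean (n = 3 each); all panels span the same number of log2 units. The groups are apart for Adam17, Adam8, Adam9, Adam10, Adam15 and Adam12, and they overlap for Adamts4 and Adamdec1. In Adam12 bleomycin D, at 8.62, lies far above E and F.

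Adam10 is the protease that cuts Notch and cadherins, and its probe sets did not agree on a call. The brightest read 10.19, 10.01 and 9.91 in bleomycin lungs D, E and F, against 9.85, 9.46 and 9.56 in saline lungs A, B and C. These groups do not overlap but lie close, with a difference of 0.41 ± 0.14 (SE, n = 3 each, adjusted p = 0.13). A dimmer probe set read 7.99, 7.33 and 7.61 in bleomycin lungs, against 6.88, 6.65 and 6.64 in saline lungs, a difference of 0.92 ± 0.17 (SE, n = 3 each, adjusted p = 0.0238). The remaining one differed by 0.22 ± 0.21 (SE, adjusted p = 0.594), with overlapping groups. Adam10 is therefore counted as not called, since it is read through its brightest probe set.

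**Figure D3:**
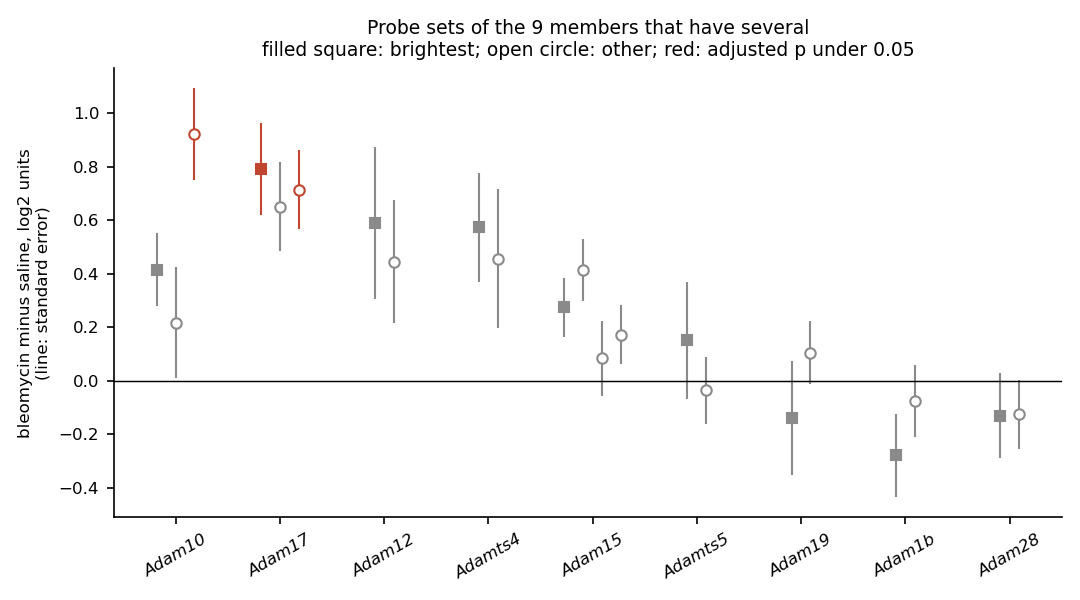
Differences between bleomycin and saline lungs in log2 units with standard errors, for each probe set of the 9 members that have several. The Adam17 probe sets lie together between 0.65 and 0.79, those of Adam10 spread from 0.22 to 0.92, and Adam19 and Adamts5 have probe sets on both sides of 0.

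Adam9, a widely expressed membrane protease also called meltrin gamma, missed the threshold. It stood at 10.72, 10.61 and 10.47 in bleomycin lungs D, E and F, against 10.14, 10.10 and 10.21 in saline lungs A, B and C. The spread within each group was small beside the gap between them, with standard deviations of 0.13 in bleomycin and 0.05 in saline lungs. The difference was 0.45 ± 0.11 (SE, n = 3 each, adjusted p = 0.0564). Adam15, which carries an integrin-binding motif in its disintegrin domain, stood at 9.99, 9.82 and 10.08 in bleomycin lungs and at 9.72, 9.68 and 9.67 in saline lungs. Its difference of 0.27 ± 0.11 (SE, n = 3 each) did not pass (adjusted p = 0.192), nor did its 3 other probe sets, at 0.08 to 0.41.

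Adam12, or meltrin alpha, a protease known from muscle and from stromal cells in remodelling tissue, stood at 8.62, 7.42 and 7.50 in bleomycin lungs D, E and F, against 7.21, 7.22 and 7.34 in saline lungs A, B and C. Bleomycin D stood above the other 5 arrays by more than they differed among themselves. The difference was 0.59 ± 0.28 (SE, n = 3 each, adjusted p = 0.278). Without that array the difference was 0.20. The dimmer Adam12 probe set showed the same pattern, at 6.49, 5.53 and 5.65 in bleomycin lungs, against 5.35, 5.54 and 5.45 in saline lungs. Adam19, or meltrin beta, differed by -0.14 in its brightest probe set and by 0.10 in the other. Adam28 and Adam33, a gene known from genetic studies of asthma, differed by -0.13 and -0.15, and none of the 3 passed.

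Adamdec1 is a small secreted relative of the ADAMs, described in macrophages and dendritic cells. It stood at 7.97, 8.06 and 7.59 in bleomycin lungs D, E and F, against 8.58, 8.05 and 8.30 in saline lungs A, B and C, and the groups overlapped. The difference was -0.44 ± 0.17 (SE, n = 3 each, adjusted p = 0.193), in the opposite direction to the macrophage markers above. Adam7 and Adam28, its neighbours on the chromosome with no other protein-coding gene between them, differed by -0.20 and -0.13 without passing. Adam11, Adam22 and Adam23, whose proteins lack protease activity and are known from the nervous system, differed by -0.09 to 0.11.

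The 13 members known from sperm and the reproductive tract gave no call, beside 5.60% of all genes called in either direction. Their differences ran from -0.28 (Adam1b) to 0.05 (Adam18), and 11 of the 13 were negative, beside 7060 of all 12393 genes. Most were dim: 10 of the 13 lay in the lowest 25% of all probe sets by mean signal, and Adam4, with a mean of 8.13, was the only one above the median. The arrays' detection calls were not used here, so it is not known which of these readings exceed background. Markers of testis and sperm averaged 5.96 to 6.17 in bleomycin lungs, against 6.02 to 6.20 in saline lungs. In Adam3 all bleomycin values lay below all saline values, at 4.66, 4.54 and 4.46 in bleomycin lungs, against 4.69, 4.71 and 5.09 in saline lungs, but the difference of -0.28 did not pass (adjusted p = 0.285).

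Of the ADAMTS proteases and ADAMTS-like proteins, 9 were measured. The procollagen proteases Adamts2, Adamts3 and Adamts14 were not among them, nor were Adamts9, Adamts12 and Adamts13. None of the 9 passed, beside 5.60% of all genes called in either direction. With an unadjusted p under 0.05 there was 1 member (11.1%), beside 22.7% of all genes. That member was Adamts4, an aggrecanase that cuts the core proteins of large proteoglycans. It stood at 7.02, 6.27 and 6.46 in bleomycin lungs D, E and F, against 5.83, 5.93 and 6.28 in saline lungs A, B and C. Bleomycin E lay just below saline C, so the groups overlapped. The difference was 0.57 ± 0.20 (SE, n = 3 each, adjusted p = 0.153), and 0.35 without bleomycin D. In the dimmer Adamts4 probe set only bleomycin D stood out, at 6.28, beside 5.22 and 5.25 for E and F and 5.03 to 5.18 in saline lungs.

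The other proteoglycan-cutting members also overlapped between groups. Adamts1, which cuts versican and also the protease inhibitor Tfpi2, stood at 10.56, 9.78 and 10.30 in bleomycin lungs D, E and F, against 10.00, 9.85 and 9.32 in saline lungs A, B and C. Its difference was 0.49 ± 0.23 (SE, n = 3 each, adjusted p = 0.271), and it was 0.29 without saline C and 0.31 without bleomycin D. Adamts15 differed by 0.24, Adamts5, a main aggrecanase of mouse cartilage, by 0.15, and Adamts8 by -0.06, none of them past the test. Adamts5 differed by -0.078 without bleomycin D and by 0.41 without bleomycin E. Adamts1 and Adamts5 lie next to each other in the genome, as do Adamts15 and Adamts8. Adamts10, a protease linked to fibrillin microfibrils, stood at 8.52, 8.72 and 9.23 in bleomycin lungs, against 9.16, 8.99 and 9.78 in saline lungs, a difference of -0.49 ± 0.24 (SE, n = 3 each, adjusted p = 0.281), which was -0.25 without saline C. Adamts7, which cuts cartilage oligomeric matrix protein, differed by 0.01, and the ADAMTS-like genes Adamtsl4 and Adamtsl5 by -0.20 and 0.00.

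Genes that act on these proteases were read as a list of 20, of which 19 were measured, 1 rose and 1 fell. These are 5.26% higher and 10.5% in either direction, beside 3.70% and 5.60% of all genes, and the median difference was 0.03, beside -0.04 over all genes. Timp1, a tissue inhibitor of metalloproteases that also blocks Adam10, stood at 10.23, 8.95 and 9.82 in bleomycin lungs, against 7.13, 7.17 and 7.70 in saline lungs, and rose 5.04-fold (adjusted p = 0.00586). Reck, a membrane-anchored inhibitor of metalloproteases, Adam10 among them, stood at 8.19, 8.76 and 9.01 in bleomycin lungs, against 10.11, 10.18 and 9.93 in saline lungs. It fell by 1.42 log2 units (adjusted p = 0.00786). Both calls were lost without saline A alone among the 6 arrays, with an adjusted p of 0.0513 for Timp1 and 0.0554 for Reck. Timp3, the tissue inhibitor with the broadest action on ADAM and ADAMTS proteases, differed by 0.03 ± 0.18 (SE, adjusted p = 0.945). Rhbdf1, a partner in the maturation of Adam17, differed by -0.27, while Rhbdf2, also on the list, was not measured. The proprotein convertase Furin differed by 0.31, and Tspan5, a tetraspanin that escorts Adam10, by 0.49. None of these differences passed the test.

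**Figure D4:**
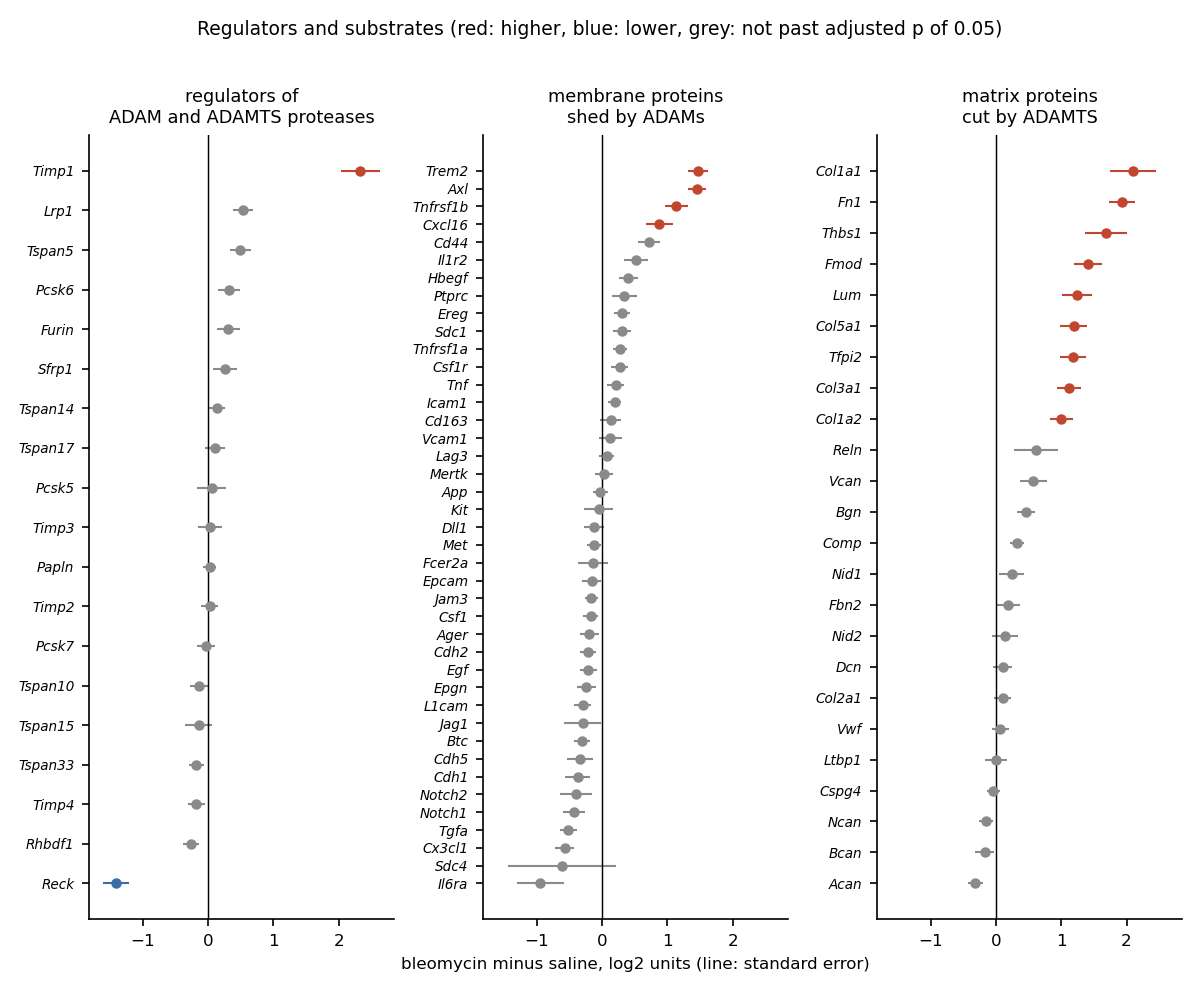
Differences between bleomycin and saline lungs in log2 units with standard errors for the measured genes of 3 lists. Timp1 at 2.33 and Reck at -1.42 are the called regulators, 4 of the shed membrane proteins are called higher, and 9 of the ADAMTS substrates are called higher with none lower.

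Membrane proteins that ADAMs release were read as a list of 45, of which 41 were measured, 4 rose and 0 fell. These 9.76% stand beside 3.70% of all genes called higher, and the median difference was -0.12, beside -0.04 over all genes. Axl, a receptor tyrosine kinase that binds apoptotic cells through Gas6, stood at 10.64, 10.14 and 10.41 in bleomycin lungs, against 8.97, 8.91 and 8.94 in saline lungs, and rose 2.74-fold (adjusted p = 0.00158). With the mean of its probe sets in place of the brightest, the Axl difference was 0.69 log2 units in place of 1.46, and still passed (adjusted p = 0.00624). Trem2, a lipid receptor of macrophages, rose 2.77-fold (adjusted p = 0.00214) by 1 of its probe sets, and the other differed by 0.05. Tnfrsf1b, a receptor for tumour necrosis factor, rose 2.2-fold (adjusted p = 0.0123), a difference of 1.14 that was 0.65 with the mean of its probe sets (adjusted p = 0.0369). The chemokine Cxcl16, anchored in the membrane until Adam10 cuts it, rose 1.84-fold (adjusted p = 0.0497). Tnf itself, the substrate for which Adam17 was named, stood at 7.35, 7.25 and 7.62 in bleomycin lungs, against 7.06, 7.30 and 7.23 in saline lungs, and did not pass (adjusted p = 0.411). Tnfrsf1b lost its call without saline A (adjusted p = 0.058), and Cxcl16 passed in none of the fits with 1 array left out but that without bleomycin E, with an adjusted p of 0.122 without saline A, 0.0852 without saline B, 0.139 without saline C, 0.0783 without bleomycin D and 0.128 without bleomycin F. The 6 macrophage markers that rose moved beside these 4 genes, and their part in the 4 rises was not tested.

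Matrix proteins that ADAMTS proteases cut were read as a list of 25, of which 24 were measured, 9 rose and 0 fell, 37.5% beside 3.70% of all genes. The median difference was 0.39. Col1a1, a chain of fibrillar collagen I whose precursor loses its end to ADAMTS procollagen proteases, rose 4.28-fold. Those proteases, Adamts2, Adamts3 and Adamts14, were not analysed here. Fibronectin (Fn1), at 13.66, 12.78 and 13.12 in bleomycin lungs, against 11.23, 11.32 and 11.23 in saline lungs, rose 3.8-fold. Thbs1, which encodes thrombospondin 1, rose 3.23-fold, the collagen-binding proteoglycans Fmod and Lum 2.66-fold and 2.37-fold, and Col5a1 2.28-fold. The other called genes were Col3a1, Col1a2 and Tfpi2. Vcan, the large proteoglycan versican, differed by 0.57 ± 0.21 (SE, adjusted p = 0.164), and Acan, the cartilage proteoglycan aggrecan, by -0.32, neither past the test. Without saline A, and likewise without bleomycin F, 2 genes of this list were called higher, beside 1.32% and 1.70% of all genes in those fits. Of the 6 genes named with folds, Fn1 passed in all 6 fits with 1 array left out. Col1a1 failed without bleomycin F (adjusted p = 0.0619) and Fmod without saline A (0.0554). Thbs1 failed without saline A, bleomycin D or bleomycin F, with adjusted p of 0.0637 to 0.084. Lum failed without saline A, saline B, bleomycin D or bleomycin F, at 0.0617 to 0.0932, and Col5a1 without saline A, saline B, saline C or bleomycin F, at 0.057 to 0.0711. The differences of these 5 genes stayed at 1.00 or more in all 6 of those fits. Fibroblast markers averaged 10.48 to 10.96 in bleomycin lungs, against 10.03 to 10.37 in saline lungs, with 3 of 6 called higher and Tcf21 lower. The 3 are Col1a1, Col1a2 and Lum, which the matrix list also holds, so the lists are not independent.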

How the data were processed

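Lung RNA was read on 6 arrays, 3 of bleomycin and 3 of saline mice. The authors deposited log2 expression values for each probe set, made by RMA with quantile normalization, per the design text and the submitters' processing notes. Software versions were not given in the sources used here. That the base is 2 was read from the largest value, 14.42, which is above 11.1, the natural log of the highest 16-bit reading.

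Of 22690 probe sets, 64 controls were left out. The 22626 others were fitted together with limma 3.58.1 (lmFit, eBayes, no covariates) under R 4.3.3, with Benjamini-Hochberg adjustment across all of them and a threshold of 0.05. All adjusted p-values come from that fit or its repeats. Differences are log2 bleomycin minus log2 saline, with the moderated SE. GEO's platform annotation gave 1 symbol to 20380 tested probe sets, several to 691 and none to 1555; 1 Adam probe set with several symbols was left out. The code of the fit was run on simulated arrays with known changes, drawn independently for each probe set. That run checked the code and bears on no value above. Plots used matplotlib 3.10.9 in Python 3.11.15.

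Members, lists and the rule for named genes were chosen with earlier results of these data known. By that rule, all 6 values are given for members that passed, that had an unadjusted p under 0.05, or that, outside the sperm class, differed by over 0.5, and for Adam10 and Adam17; from each other list, up to 6 called genes in each direction were named. Other genes named singly, such as Adam3, Adamts1, Adamts5, Adamts10, Timp3, Tnf and Vcan, and the promoter motifs, were chosen after values were seen. Alternatives varied the variance prior, array weights, dim probe sets, scaling, choice of probe set, threshold and the arrays used.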

Additional observations from a re-analysis of the deposited data

How the results depend on the processing

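The 2 members called higher became 1 after repeated quantile normalization (Adam8; Adam17 had an adjusted p of 0.0505), and 0 with arrays centred on ribosomal protein genes (adjusted p = 0.051 for Adam8 and 0.0813 for Adam17), with an added minimum of 2-fold, or when the adjusted p had to be under 0.01. Leave-one-out fits called 0 to 2: 0 without saline A, saline B, bleomycin D or bleomycin F, 1 without bleomycin E (Adam8) and 2 without saline C. The share of all genes called higher moved too: it was 3.70% in the main setting, 3.28% after repeated quantile normalization, 2.86% with ribosomal centring, 1.57% with the 2-fold minimum, 1.15% at 0.01, and 1.32% (without saline A) to 3.11% (without bleomycin E) in leave-one-out fits. The members called higher were 3 with the mean of a gene's probe sets (Adam9 added, adjusted p = 0.0354) and 3 when any probe set counted (Adam10 added), beside 4.41% and 4.47% of all genes. Adam9 has 1 probe set, so averaging left its values and its difference of 0.45 as they were. That fit held 12393 genes in place of 22626 probe sets. No alternative called a member lower, and of the 11 members followed through the alternatives Adamts5 alone changed sign, with leave-one-out differences of -0.078 (without bleomycin D) to 0.41 (without bleomycin E). Centring on ribosomal protein genes moved the median of all genes to -0.10. Without the dimmer probe sets, up to the median, the 16 members left had a median of 0.20.

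Regulators called higher numbered 2 with the mean of probe sets and 2 when any counted, beside 4.41% and 4.47% of all genes. With 1 array left out, regulators called higher ran from 0 to 2 and those called lower from 0 to 1. Over all genes these fits called 1.32% to 3.11% higher and 0.178% to 1.33% lower. Shed membrane proteins called lower numbered 1 of 41 after repeated quantile normalization and 1 of 28 without the dimmer probe sets. Over all genes 2.50% and 3.04% were called lower in those settings. Those called higher numbered 3 after repeated quantile normalization, with ribosomal centring or with the 2-fold minimum, and 6 with the mean of probe sets. They numbered 2 at the 0.01 threshold and ran from 2 to 5 in leave-one-out fits. Cxcl16 lost its call in 10 of 17 alternatives. ADAMTS substrates called higher numbered 1 at the 0.01 threshold and ran from 2 to 10 in leave-one-out fits. The shares of all genes called higher in the settings named for shed proteins and substrates are those given above for the members. The Trem2 call rests on a probe set of the _s_at or _x_at kind, without which the difference was 0.05, adjusted p = 0.806. Without such probe sets Fmod missed the threshold (adjusted p = 0.0975) with a difference of 1.27, against 1.41 with them. Fits with an array left out have fewer arrays; for the other changes the cause was not tested.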
